A study of Mus musculus with 11 samples.

Results

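The genes described here encode the contractile and membrane-linked part of the actin cytoskeleton: troponins, tropomyosins, myosin II chains, actins, alpha-actinins, calponins, transgelins, caldesmon, filamin, focal adhesion linkers and the ezrin, radixin and moesin (ERM) proteins. They are 37 genes of the 53453 rows in the table of transcript levels, all 37 were found by symbol, and 29 reached at least 1 TPM (a transcript level scaled to transcript length and to a fixed library total) in at least 5 libraries and could be tested. The list was chosen from gene function and from measured values of these same libraries, so what follows describes these genes and is no independent evidence about the gene class. RNA was sequenced from primary neurospheres, free-floating clusters grown out of dividing neural precursors, from mouse embryonic brain at E15.5. The groups were Klf5 overexpression (5 libraries) and control (6 libraries, treatment given as none). The labels count as many embryos as libraries, and p-values measure the spread between these libraries. The labels do not give the strain, the way in which Klf5 was overexpressed, or any allele that the groups share.

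Actin filaments do mechanical work in non-muscle cells when bipolar filaments of non-muscle myosin II pull on them, and myosin is switched on by phosphorylation of its regulatory light chain. Tropomyosins, calponins, caldesmon and transgelins coat or bundle the filaments and set how myosin and severing factors reach them, alpha-actinins and filamin cross-link them, and talin, vinculin and zyxin tie them to integrin adhesions. ERM proteins join the cortical filaments to membrane proteins. In the embryonic neuroepithelium this machinery shapes the apical surface of radial glia, where myosin II drives apical constriction. Troponins form the calcium switch of the striated muscle thin filament. KLF5 is a zinc finger transcription factor that binds GC-rich and CACCC-type DNA, and SRF, the classical activator of cytoskeletal genes, binds the CArG box.

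In the neurospheres with Klf5 overexpression, Ezr, Cald1, Tagln2, Myh9 and Msn were higher and Tnnt1, Myl9, Actn1 and Cnn3 were lower than in controls, with Myl9 reaching 1 TPM in controls alone and so entering the test through the group where it was higher. The other 20 tested genes, among them both cytoplasmic actins and each of the 4 tropomyosins, were not called. The call was an adjusted p under 0.05 from limma, a linear model fitted to all 13549 tested genes on log2(TPM + 1) with Benjamini-Hochberg adjustment. The 9 calls, 5 higher and 4 lower, stand beside 3.72% of all tested genes called in either direction, 2.29% higher and 1.43% lower; since the list was drawn up with some of these results known, nothing is read from its count. The median log2 fold change was 0.05 over the 29 tested members and -0.04 over all tested genes.

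**Figure D1:**
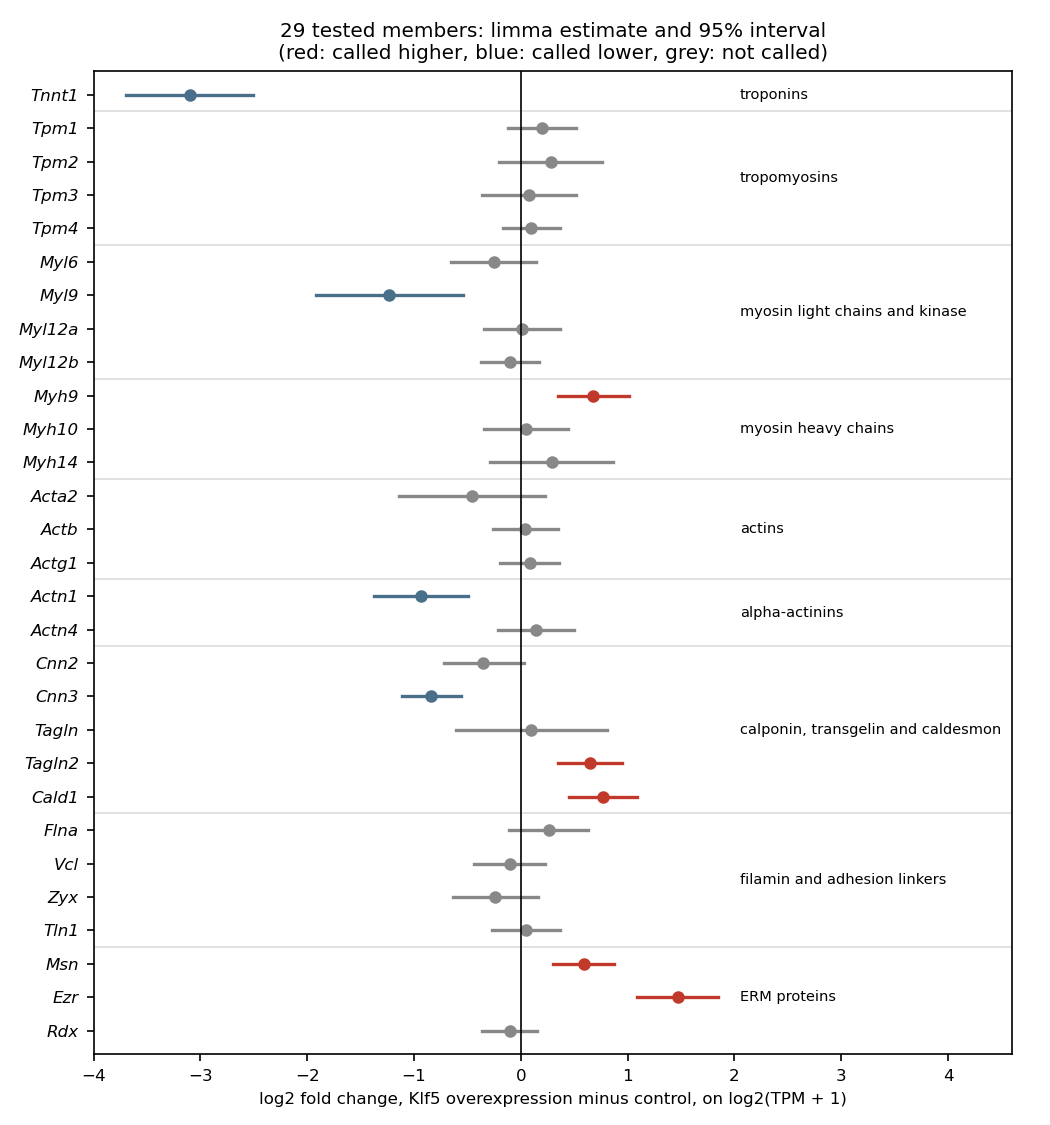
Log2 fold change of the 29 tested members (x axis, Klf5 overexpression minus control on the log2(TPM + 1) scale, points) with its 95% interval from limma (lines), one gene per row and grouped by role. Tnnt1 lies farthest to the left at -3.10 and Ezr farthest to the right at 1.47, while the intervals of the tropomyosins and of Actb and Actg1 include 0.

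The DNA just before the start site is shown for 4 of the called genes, chosen as the largest fall (Tnnt1), the largest rise (Ezr), the most abundant gene that fell (Cnn3) and the one called gene with a CArG box (Myl9). Each line gives the 250 bases before the RefSeq start on the gene's own strand, 5′ to 3′, from RefSeq on GRCm38.p6. Capitals mark the GC box GGGCGG, the letters CACCC and the CArG box, searched on both strands, with neighbouring or overlapping matches running together. The windows are chr7:4515976-4516225 (minus strand) for Tnnt1, chr17:6782781-6783030 (minus strand) for Ezr, chr3:121426291-121426540 (plus strand) for Cnn3 and chr2:156775214-156775463 (plus strand) for Myl9. In GENCODE the outermost starts of Ezr (6782784), Cnn3 (121426497) and Myl9 (156775420) lie inside these windows, so their last bases fall within the annotated gene.
Tnnt1: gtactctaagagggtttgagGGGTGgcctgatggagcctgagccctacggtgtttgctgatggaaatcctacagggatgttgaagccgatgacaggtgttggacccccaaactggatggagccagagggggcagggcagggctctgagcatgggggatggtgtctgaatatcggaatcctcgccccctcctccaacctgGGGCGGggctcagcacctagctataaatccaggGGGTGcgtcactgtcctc
Ezr: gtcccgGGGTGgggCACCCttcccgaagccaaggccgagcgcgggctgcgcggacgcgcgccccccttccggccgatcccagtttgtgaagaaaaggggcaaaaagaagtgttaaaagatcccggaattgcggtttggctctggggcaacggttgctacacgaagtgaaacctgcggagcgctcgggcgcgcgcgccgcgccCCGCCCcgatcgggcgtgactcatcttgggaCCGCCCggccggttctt
Cnn3: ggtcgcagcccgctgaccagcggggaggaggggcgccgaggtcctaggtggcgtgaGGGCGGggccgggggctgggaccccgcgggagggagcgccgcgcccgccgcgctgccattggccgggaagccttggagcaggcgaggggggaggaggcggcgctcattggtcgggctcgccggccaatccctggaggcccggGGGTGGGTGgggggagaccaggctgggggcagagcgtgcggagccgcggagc
Myl9: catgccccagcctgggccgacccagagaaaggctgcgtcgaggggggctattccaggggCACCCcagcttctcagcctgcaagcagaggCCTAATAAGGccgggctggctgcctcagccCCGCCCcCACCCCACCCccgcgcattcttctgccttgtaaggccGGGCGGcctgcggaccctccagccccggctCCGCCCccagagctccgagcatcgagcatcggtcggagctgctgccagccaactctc

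The Tnnt1 window held 1 GC box and 2 CACCC matches, with a CACCC match beginning 18 bases before the start. The Ezr window held 2 GC boxes, the nearer beginning 17 bases before the start, and 2 CACCC matches near its far end. The Cnn3 window held 1 GC box and 2 overlapping CACCC matches, and the Myl9 window held 3 GC boxes, 3 CACCC matches and 1 CArG box, which begins 161 bases before the start. Windows of 34 members were found, and Tnnt3, Actb and Tagln had none in the table used. A GC box was present in the windows of 22 of these 34 genes, CACCC in 26 and a CArG box in 5 (Myl9, Cnn2, Myl6, Actg1 and Vcl), counting a gene with several windows as positive if any held the letters. Over all 32851 promoter windows in the table the shares were 32.7% for the GC box, 52.0% for CACCC and 1.47% for the CArG box. These shares are per window, whereas the member counts are per gene, which favours the members, so they are not directly comparable. Of the 5 genes called higher, 4 held a GC box and 3 held CACCC, and of the 4 called lower, 4 and 3 did. Of the 18 genes tested and not called, 13 held a GC box and 14 held CACCC, and of the 7 not tested, 1 and 6 did. These are matches of letters, and the libraries say nothing about binding.

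The labels were checked first on Klf5 itself, which had 53.6 to 93.0 TPM in the overexpression libraries and 0.371 to 1.29 TPM in controls. Summed over the table, a library held between 730832 and 821967 TPM with overexpression and between 814208 and 846780 TPM in controls. The listed rows thus did not add up to 1 fixed total in each library. What part the difference in these sums has in the results was not tested beyond the scalings tried. Overexpression library 5 had the lowest total and was the lowest of the 11 libraries for 7 of the 29 tested members. The 9 neural progenitor markers, led by Fabp7, all passed the filter and summed to 3604 to 5573 TPM with overexpression and 4639 to 7738 TPM in controls. These markers went both ways. Lower means with overexpression than in controls were found for Fabp7 (2105 and 3596 TPM), Hes5 (69.0 and 125.2 TPM) and Slc1a3 (90.8 and 151.6 TPM). The same held for Msi1 (17.4 and 27.0 TPM) and Prom1 (3.52 and 6.34 TPM). Sox2 averaged 359.9 TPM with overexpression and 377.4 TPM in controls, and Pax6 8.09 and 8.12 TPM. Nes averaged 382 and 342 TPM, and Vim had 1235 to 1910 TPM and 979.8 to 1157 TPM. Of 12 skeletal and cardiac muscle markers, Myog, Myf5, Myf6 and Ckm were at 0 in every library, 1 passed the filter, and the list summed to 2.39 to 5.08 TPM with overexpression and 2.02 to 4.51 TPM in controls, with Actc1 the highest. The 13 smooth muscle and mural markers summed to 127.5 to 194.5 TPM with overexpression and 79.2 to 113.9 TPM in controls; without Cspg4, a proteoglycan shared with oligodendrocyte progenitors, the sums were 35.1 to 47.8 TPM and 44.3 to 58.9 TPM. Within that list Notch3 had 12.4 to 19.9 TPM with overexpression and 22.2 to 37.9 TPM in controls, whereas Smtn had 16.6 to 27.0 TPM with overexpression and 13.3 to 19.5 TPM in controls, and Des averaged 1.34 TPM and 0.314 TPM. Of that list Kcnj8 was at 0 in every library, and Myh11, the smooth muscle myosin heavy chain, was at most 0.204 TPM with overexpression and 0.163 TPM in controls. Meningeal and fibroblast markers summed to 36.7 to 73.9 TPM with overexpression and 28.3 to 100.1 TPM in controls, with Dcn and Lum at 0. Pdgfra made up most of this sum, at 24.6 to 67.1 TPM with overexpression and 22.4 to 95.1 TPM in controls. Fn1 had 5.00 to 8.72 TPM with overexpression and 3.94 to 4.77 TPM in controls, without overlap. The rest of the list averaged under 1 TPM in each group. Choroid plexus and ependymal markers summed to 11.5 to 30.6 TPM with overexpression and 18.6 to 26.4 TPM in controls, with Ttr at 0, and endothelial, microglial and red cell markers each summed to at most 1.99 TPM in any library. The part of these marker differences, which do not share 1 direction within a list, in the results was not tested.

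Tnnt1 encodes the troponin T of slow skeletal muscle, the subunit that anchors the troponin complex to tropomyosin. It lies on chromosome 7 (4504570 to 4516382, minus strand, GRCm38), and the printed window lies within these bounds because GENCODE places the gene's outermost start farther upstream than RefSeq. It had 1.24, 1.33, 6.39, 3.96 and 1.77 TPM in the 5 overexpression libraries, against 27.4, 37.5, 23.8, 24.8, 26.7 and 37.7 TPM in the 6 controls. The groups lie far apart, with the highest overexpression library well below the lowest control. Means were 2.94 ± 2.22 TPM (SD, n = 5) and 29.6 ± 6.29 TPM (SD, n = 6), and limma gave -3.10 on the log2 scale (SE 0.28, adjusted p = 5.33e-06). The mean was 10.1-fold lower, a ratio that ran from 8.82-fold to 14.3-fold lower when any 1 library was left out. In bulk RNA, fewer cells of a type and less RNA per cell cannot be told apart, here and in the results that follow.

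Tnnc1 and Tnni1, the listed partners that make troponin T a calcium switch, were barely present in either group. Tnnt2 and Tnnt3, the cardiac and fast skeletal troponin T genes, were listed at 0 in all 11 libraries, so all troponin T transcript came from Tnnt1. Tnnc1, the calcium-binding troponin C of slow and cardiac muscle, was at 0.538, 0, 0, 0 and 0.295 TPM with overexpression and at 0.774, 0, 0.362, 0, 1.16 and 0.257 TPM in controls. Tnnc1 overlaps Nisch on the opposite strand. Tnni1, the slow skeletal inhibitory subunit, was above 0 in 4 of 11 libraries and at most 0.0860 TPM with overexpression and 0.390 TPM in controls. Tnnt1 was thus the 1 member of the 5 troponins that could be tested, and its level in controls was not matched by Tnnc1 or Tnni1.

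The 4 tropomyosin genes, whose coiled-coil products lie along the filament groove, were not called, with log2 fold changes between 0.08 and 0.28. Tpm4, a cytoskeletal form and the most abundant of them, had 315, 213, 266, 280 and 217 TPM with overexpression and 204 to 280 TPM in controls (median 240 TPM). Overexpression library 1 lay above every control and the other libraries within the control range, and the log2 fold change of 0.10 had a 95% interval of -0.17 to 0.37. Tpm3 had 65.8 to 165 TPM with overexpression and 83.7 to 138 TPM in controls, and Tpm1 had 56.9 to 78.4 TPM and 46.7 to 77.6 TPM. Tpm2, best known from muscle, stayed between 1.20 and 1.87 TPM with overexpression and between 0.415 and 1.59 TPM in controls. Within the summed tropomyosin transcript of a library, the Tpm4 share was 53.7 to 63.5% with overexpression and 52.9 to 62.4% in controls, ranges that overlap almost wholly. Of the sequence words of 50 bases in Tpm3 transcripts 23.2% also occur in Tpm3-rs7, so reads of that pair could be assigned to either. For Tpm4, 11.7% of the words also occur in Gm7809, with the same limit.

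Non-muscle myosin II has 3 heavy chain genes, and the balance between them differed between the groups. Myh9, which encodes the IIA heavy chain, had 112, 96.5, 84.6, 101 and 74.2 TPM with overexpression and 51.7, 65.6, 57.7, 44.3, 49.5 and 81.8 TPM in controls. Of the 5 overexpression libraries 4 lay above every control, and library 5 lay below control 6. Means were 93.5 ± 14.5 TPM (SD, n = 5) and 58.4 ± 13.6 TPM (SD, n = 6), and limma gave 0.68 on the log2 scale (SE 0.16, adjusted p = 0.0188). The adjusted p was 0.0525 without overexpression library 1 and 0.0567 without overexpression library 4, so the call rested on each of these libraries. Myh10, the IIB heavy chain that predominates in embryonic brain, was not called, at 55.9 ± 14.8 TPM (SD, n = 5) and 53.2 ± 9.82 TPM (SD, n = 6), or 0.05 on the log2 scale with a 95% interval of -0.34 to 0.44. Myh14, the IIC heavy chain, had 4.69, 7.87, 3.11, 2.53 and 1.71 TPM with overexpression and 2.17 to 3.76 TPM in controls, with no call.

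Shares within a library do not depend on its total. Myh9 made up 60.6, 63.8, 57.3, 58.1 and 66.9% of the summed heavy chain transcript with overexpression and 51.6, 52.5, 47.9, 41.7, 55.9 and 56.0% in controls. Every overexpression library lay above every control in this share, which the TPM values themselves did not show. The Myh10 share was 31.0 to 40.6% with overexpression and 41.7 to 54.8% in controls, again without overlap. On average Myh9 and Myh10 were 61.3% and 36.1% of the pool with overexpression, and 50.9% and 46.6% in controls.

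**Figure D2:**
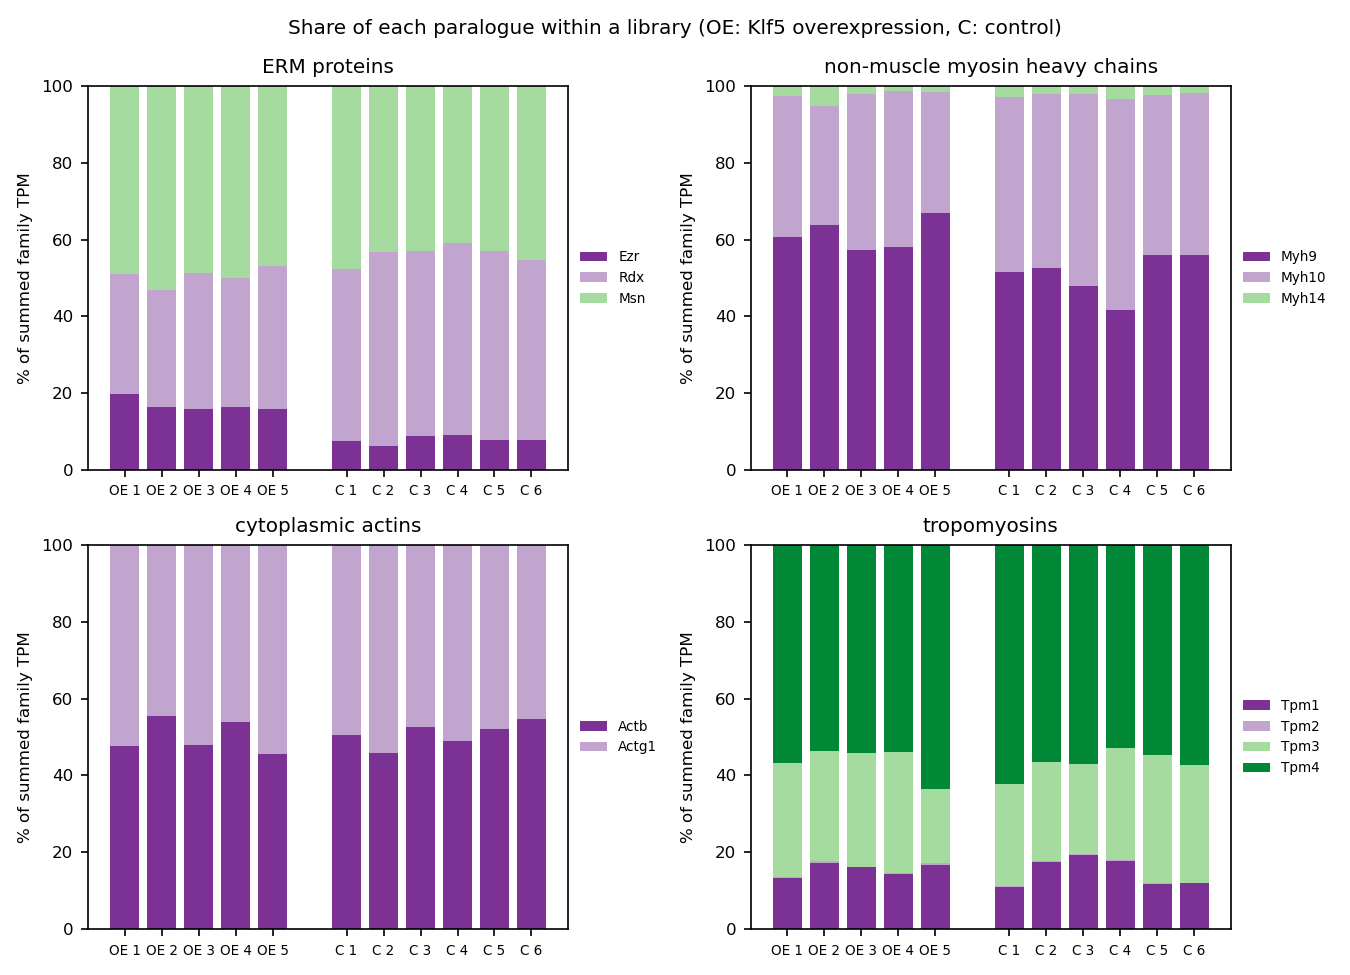
Share of each paralogue in the summed TPM of its family (y axis, percent) in each library (x axis, 5 Klf5 overexpression libraries and then 6 controls). The Ezr band is 15.9 to 19.8% with overexpression and 6.32 to 9.01% in controls and the Myh9 band is deeper in every overexpression library, whereas the actin and tropomyosin bands overlap.

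Among the myosin light chains, Myl6, the essential light chain of non-muscle and smooth muscle myosin, was the most abundant, at 159, 246, 267, 265 and 141 TPM with overexpression and 170 to 284 TPM in controls (median 273 TPM). Its groups overlapped, with overexpression libraries 1 and 5 the lowest of all 11. Myl12a and Myl12b, the regulatory light chains that carry the activating phosphorylation, were not called, with log2 fold changes of 0.01 and -0.10. Of the 50-base words of Myl12a, 16.2% occur in Myl12b transcripts, so reads from those stretches could be assigned to either gene and the split between them is less certain. Of the Myl12b words, 25.4% occur in another gene entry of the same name.

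Myl9 encodes the third regulatory light chain, the form used by smooth muscle. It had 0.936, 0.868, 0.329, 0.637 and 0 TPM with overexpression and 1.38, 6.14, 0.978, 2.25, 4.07 and 2.56 TPM in controls. The groups did not overlap, but the gap between 0.936 and 0.978 TPM is narrow, and the controls ranged widely. Because it reached 1 TPM in 5 controls and in none of the overexpression libraries, it passed the filter through the controls alone. Its mean was 5.23-fold lower, and limma gave -1.23 on the log2 scale (SE 0.32, adjusted p = 0.0454). It could be tested in 6 of the fits with 1 library left out, with limma adjusted p from 0.0234 to 0.127. The call held in 1 of these, without control 3, and was lost without any 1 of the 5 overexpression libraries; without control 1, 2, 4, 5 or 6 it missed the filter. Regulatory light chain transcript was overwhelmingly Myl12a and Myl12b in both groups, with Myl9 at most 0.688% of it with overexpression and at most 3.32% in controls. Myl4, the atrial and embryonic light chain, was at most 0.652 TPM with overexpression and 0.367 TPM in controls, and Mylk, the kinase that phosphorylates the regulatory light chain, averaged 0.478 and 0.658 TPM; neither could be tested.

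The cytoplasmic actins were the most abundant members by far and were not called. Actb had 1460, 1617, 1363, 2013 and 1235 TPM with overexpression and 1210 to 1790 TPM in controls (median 1453 TPM). Its log2 fold change of 0.04 had a 95% interval of -0.26 to 0.35, and that of Actg1 was 0.09 with an interval of -0.19 to 0.36. Actb made up 45.5 to 55.4% of the pair with overexpression and 45.9 to 54.7% in controls. Of the 50-base words of Actg1, 33.2% also occur in Gm12715 transcripts, so its level depends on how such reads were counted. Acta2, the actin of smooth muscle, had 0.852 to 2.39 TPM with overexpression and 1.00 to 5.35 TPM in controls, with no call.

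Alpha-actinins are rod-shaped dimers that cross-link actin, and the less abundant of the non-muscle forms fell. Actn1 had 4.36, 2.02, 4.72, 3.87 and 3.15 TPM with overexpression and 8.74, 8.65, 6.66, 6.14, 6.05 and 9.98 TPM in controls. The groups did not overlap. Means were 3.62 ± 1.07 TPM (SD, n = 5) and 7.70 ± 1.64 TPM (SD, n = 6), and limma gave -0.93 on the log2 scale (SE 0.21, adjusted p = 0.0169, or 0.0502 without overexpression library 2). Actn4, the more abundant form, had 61.5, 42.9, 47.1, 69.8 and 47.3 TPM with overexpression and 37.6 to 68.6 TPM in controls (median 46.7 TPM), a log2 fold change of 0.14 that was not called. Actn1 was therefore 4.50 to 9.11% of the pair with overexpression and 8.22 to 20.9% in controls, ranges that overlap. Actn2, the sarcomeric form, was at most 0.102 TPM with overexpression and 0.299 TPM in controls.

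Of the 3 calponin genes, 1 was called and it fell. Cnn3, the acidic calponin, which is the form found in brain, had 165, 104, 144, 153 and 132 TPM with overexpression and 245, 290, 260, 247, 205 and 241 TPM in controls. Every overexpression library lay below every control. Means were 139.5 ± 23.3 TPM (SD, n = 5) and 247.9 ± 27.6 TPM (SD, n = 6), and limma gave -0.84 on the log2 scale (SE 0.13, adjusted p = 0.000895). By mean TPM it ranked 8 of the 37 members with overexpression and 4 in controls. The call was kept in all 11 fits with 1 library left out, with adjusted p from 0.00099 to 0.00338, and some 10.3% of its 50-base words occur in transcripts of other genes. Cnn2, a calponin of many non-muscle cells, had 13.9 to 23.5 TPM with overexpression and 18.2 to 35.3 TPM in controls and was not called, and Cnn1, the smooth muscle calponin, was at most 0.139 TPM with overexpression and 0.175 TPM in controls.

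Tagln2, the transgelin of non-muscle cells, has the same fold as the calponins and binds actin. It had 282, 163, 229, 270 and 198 TPM with overexpression and 160, 155, 147, 121, 127 and 147 TPM in controls. The groups did not overlap, although overexpression library 2 lay just above control 1. Limma gave 0.65 on the log2 scale (SE 0.14, adjusted p = 0.0141), and the adjusted p ranged from 0.00317 to 0.0496 with 1 library left out. Tagln, the smooth muscle transgelin, had 0.737 to 3.44 TPM with overexpression and 0.571 to 4.10 TPM in controls, with a log2 fold change of 0.10 that was not called. Tagln overlaps Pcsk7 on the opposite strand.

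Cald1 encodes caldesmon, which binds actin, tropomyosin and myosin and restrains the myosin ATPase. It had 29.2, 38.8, 28.2, 25.6 and 22.7 TPM with overexpression and 16.0, 20.2, 15.1, 18.5, 13.9 and 14.6 TPM in controls. Every overexpression library was above every control. The means were 28.9 ± 6.10 TPM (SD, n = 5) and 16.4 ± 2.44 TPM (SD, n = 6), and limma gave 0.77 on the log2 scale (SE 0.15, adjusted p = 0.00705).

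**Figure D3:**
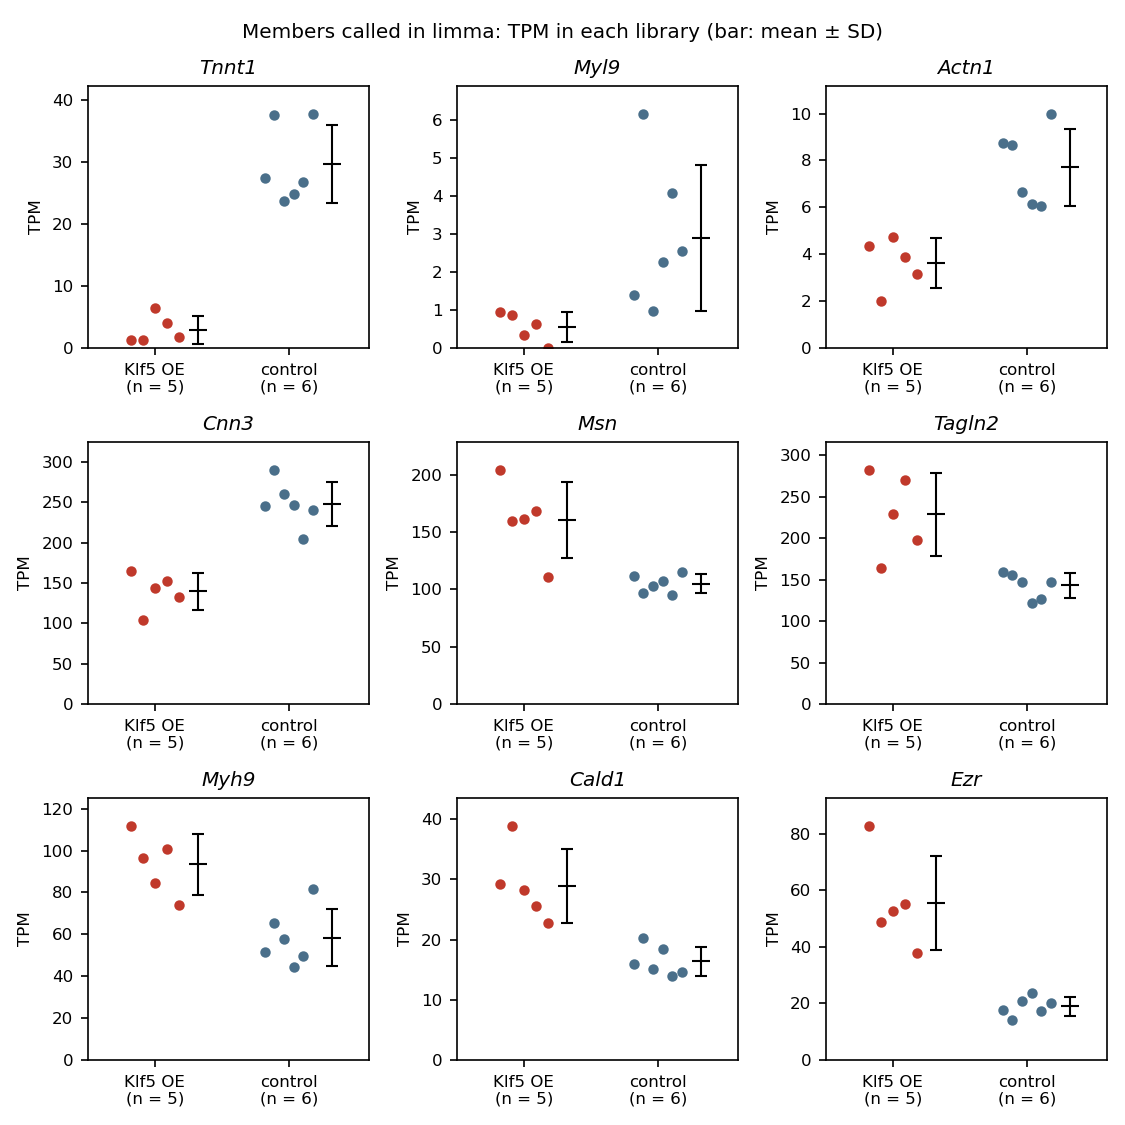
TPM of the 9 called members in each library (y axis, linear from 0; red points Klf5 overexpression, n = 5; blue points control, n = 6; black bar mean ± SD), ordered from the lowest log2 fold change to the highest. Tnnt1, Myl9, Actn1 and Cnn3 lie lower and Tagln2, Cald1 and Ezr higher in every overexpression library than in any control, while Msn and Myh9 overlap the controls in overexpression library 5.

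Filamin and the adhesion linkers gave no call. Flna, which cross-links filaments into networks, had 201, 139, 126, 197 and 134 TPM with overexpression and 96.1 to 179 TPM in controls (median 122 TPM). The groups overlapped and the log2 fold change of 0.26 had a 95% interval of -0.11 to 0.63. Tln1 (talin, which activates integrins), Vcl (vinculin, which binds talin and actin) and Zyx (zyxin, a sensor of tension at adhesions) had log2 fold changes of 0.05, -0.10 and -0.24. Their intervals lay between -0.63 and 0.37. On the opposite strand, Tln1 overlaps Creb3 and Vcl overlaps Ap3m1. Vcl varied less between controls, with an SD of 8.13% of the mean, than between overexpression libraries, where it was 22.8%.

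The ERM proteins fold open to link membrane proteins to cortical actin, and their 3 genes differed from each other. Ezr (ezrin), on chromosome 17 (6738041 to 6782784, minus strand, GRCm38), had 82.8, 48.9, 52.7, 55.3 and 37.8 TPM with overexpression and 17.5, 14.2, 21.0, 23.7, 17.3 and 20.1 TPM in controls. The lowest overexpression library was well above the highest control. Means were 55.5 ± 16.6 TPM (SD, n = 5) and 19.0 ± 3.34 TPM (SD, n = 6), a 2.93-fold ratio, and limma gave 1.47 on the log2 scale (SE 0.18, adjusted p = 0.000105). Msn (moesin) had 204, 160, 161, 168 and 111 TPM with overexpression and 112, 96.7, 103, 107, 95.4 and 116 TPM in controls. All overexpression libraries but library 5 lay above every control, and limma gave 0.59 on the log2 scale (SE 0.13, adjusted p = 0.0194, or 0.0583 without overexpression library 4). Rdx (radixin) was not called, with 88.5 to 131 TPM with overexpression and 105 to 131 TPM in controls and a log2 fold change of -0.10 (95% interval -0.36 to 0.15).

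Shares of the ERM pool separated the groups for Ezr and Rdx. Ezr was 19.8, 16.3, 15.9, 16.4 and 15.9% of the summed ERM transcript with overexpression and 7.48, 6.32, 8.83, 9.01, 7.75 and 7.90% in controls. The Rdx share was 30.5 to 37.3% with overexpression and 44.8 to 50.5% in controls, so radixin led the family in controls at 48.3% on average and moesin led it with overexpression at 49.5%. The Ezr and Rdx shares did not overlap between the groups, and the Msn share, at 46.8 to 53.2% with overexpression and 40.9 to 47.7% in controls, did.

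Groups that do not overlap were counted as a further description. With overexpression, 3 tested members lay wholly above the controls (Ezr, Tagln2 and Cald1), beside 1.99% of all tested genes, and 4 lay wholly below (Tnnt1, Myl9, Actn1 and Cnn3), beside 1.31%. Myl9 passed the filter through the controls alone, and nothing is read from these counts. The median SD between libraries, as a share of the mean over the 29 tested members, was 21.2% with overexpression and 17.6% in controls. The 95% interval of the log2 fold change lay between -1 and 1 for 19 of the 20 members that were not called, the exception being Acta2 at -1.14 to 0.23.

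**Figure D4:**
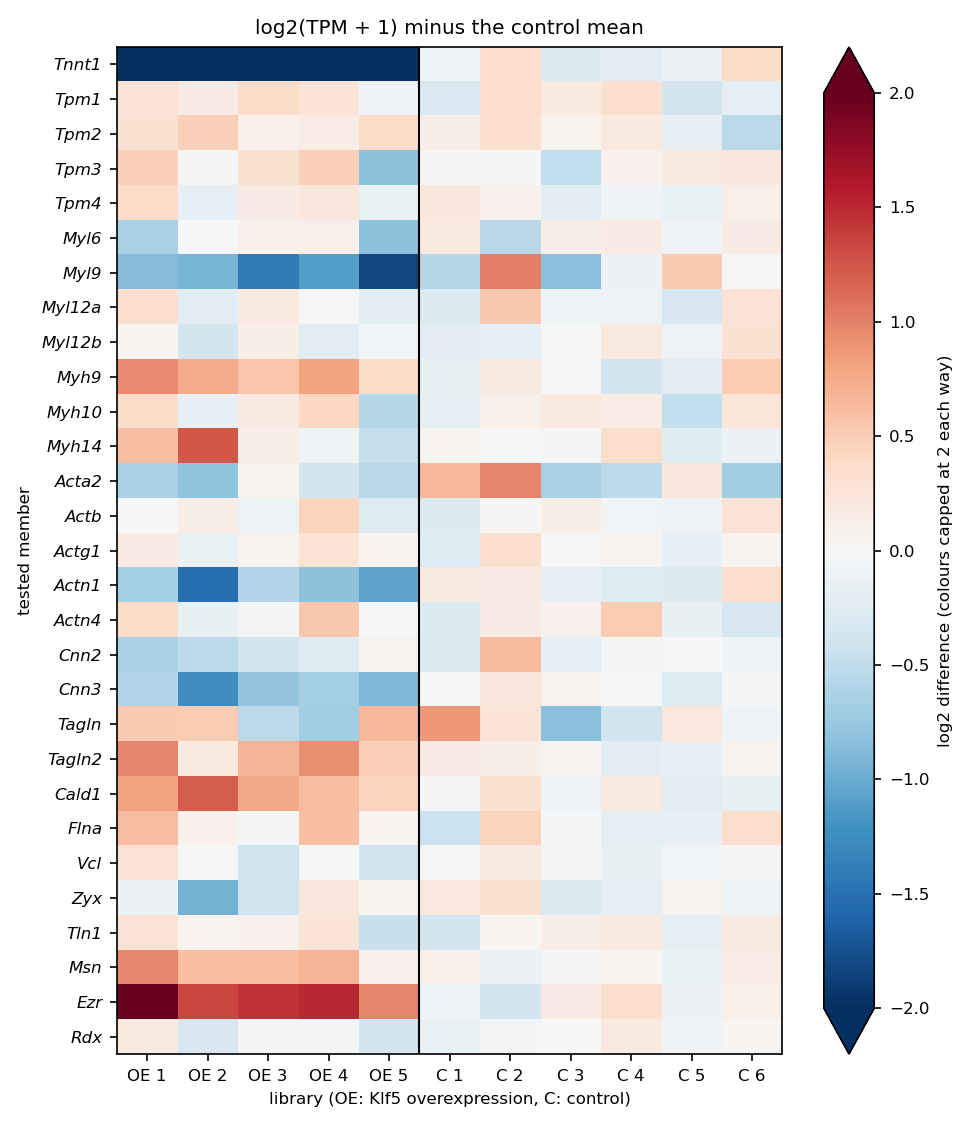
Log2(TPM + 1) of each tested member minus its control mean (colour, capped at 2 each way), with members in rows by role and libraries in columns (5 Klf5 overexpression libraries left of the line, 6 controls right of it). Rows such as Tnnt1, Cnn3, Cald1 and Ezr keep 1 colour across the overexpression libraries, and overexpression library 5 is paler than the others for Msn and Myh9.

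Genes that act on or beside this machinery were read from 4 lists of other genes, whose counts stand beside 2.29% of all tested genes called higher and 1.43% called lower. In the 36 tested genes of actin filament assembly and turnover, 3 rose and 1 fell, with a median log2 fold change of -0.01. Arpc1b, a subunit of the Arp2/3 complex that nucleates branched filaments, had 37.5, 35.2, 29.8, 40.3 and 32.7 TPM with overexpression and 13.7 to 21.8 TPM in controls, while its paralogue Arpc1a had a log2 fold change of -0.09 and was not called. Pfn2, the neuronal profilin, had 115, 70.6, 109, 97.7 and 93.0 TPM with overexpression and 135 to 174 TPM in controls, and the ubiquitous Pfn1 had a log2 fold change of 0.03 and was not called. The groups did not overlap for Arpc1b or Pfn2, and their limma adjusted p were 0.00132 and 0.00301; Arpc1b overlaps Pdap1 on the opposite strand. Tmsb4x, which sequesters actin monomers, rose by a log2 fold change of 0.55, and Limk1, which inactivates cofilin by phosphorylation, by 0.72. Their paralogues Tmsb10 and Limk2 had log2 fold changes of -0.45 and -0.51 and were not called. The limma adjusted p of Tmsb4x and Limk1 were 0.0223 and 0.0317, and reached 0.0686 and 0.105 without overexpression library 4. The Tmsb4x call was also lost without control 3 or 5, and the Limk1 call without control 1, 3 or 6 or overexpression library 1 or 3.

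In the 24 tested genes of focal adhesion and membrane linkage, 3 rose and 0 fell, with a median log2 fold change of -0.10. Cd44, a hyaluronan receptor whose tail binds ERM proteins, had 46.9, 37.6, 36.1, 44.2 and 34.0 TPM with overexpression and 7.17 to 19.8 TPM in controls, and limma gave 1.59 on the log2 scale (SE 0.20, adjusted p = 0.000131). Slc9a3r2, a PDZ scaffold that binds ERM proteins, had 9.01, 11.6, 8.15, 10.9 and 9.93 TPM with overexpression and 3.85 to 6.68 TPM in controls (limma adjusted p = 0.0129), and its paralogue Slc9a3r1 was not called, with a log2 fold change of 0.15. Fermt2 (kindlin-2, which helps talin activate integrins) had 112 to 152 TPM with overexpression and 80.6 to 105 TPM in controls, a limma adjusted p of 0.0246 and of 0.0806 without overexpression library 4; its call was also lost without control 1, 3 or 5 or overexpression library 1 or 3. For all 3 genes every overexpression library was above every control.

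Among 33 other sarcomere and smooth muscle paralogues only 11 could be tested, and 1 rose. Tmod1, which caps the pointed ends of filaments, had 4.88, 7.12, 3.28, 5.30 and 2.71 TPM with overexpression and 0.304 to 0.540 TPM in controls, and limma gave 1.96 on the log2 scale (SE 0.23, adjusted p = 8.73e-05). It passed the filter through the overexpression libraries alone, where it is high, so its call gives no support to a direction of the list, and it overlaps Tstd2 on the opposite strand. Tmod2 and Tmod3 had log2 fold changes of -0.02 and 0.31 and were not called. The median log2 fold change of the 11 was 0.31. Of the 5 tested genes in a list of SRF, its MRTF cofactors and their targets, 1 fell and 0 rose, with a median of -0.02. Ccn1, a matrix protein gene induced by SRF and YAP, had 1.49, 2.16, 1.14, 1.83 and 1.49 TPM with overexpression and 3.21 to 5.62 TPM in controls (limma adjusted p = 0.00514). Its paralogue Ccn2 was below the filter, at 0.214 to 0.542 TPM with overexpression and 0 to 0.132 TPM in controls. Srf itself was not called and averaged 19.8 ± 3.06 TPM with overexpression, against 19.7 ± 1.99 TPM in controls (SD, n = 5 and 6).

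**Figure D5:**
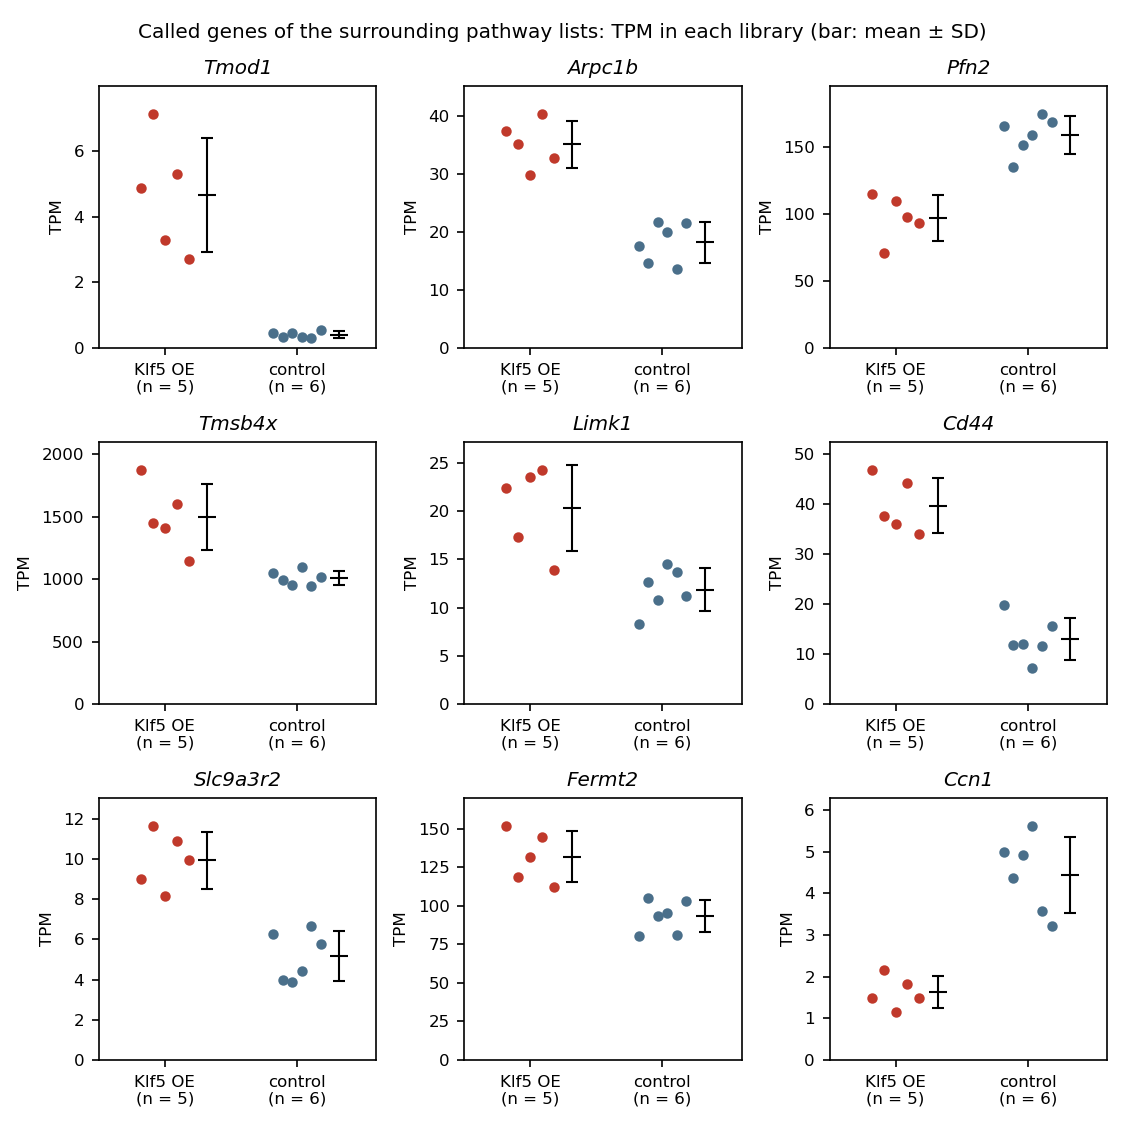
TPM of the 9 called genes of the surrounding lists in each library (y axis, linear from 0; red points Klf5 overexpression, n = 5; blue points control, n = 6; black bar mean ± SD). Pfn2 and Ccn1 lie lower in every overexpression library than in any control, the other genes lie higher, and only Limk1 overlaps.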

How the data were processed

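RNA was sequenced from neurospheres of 5 Klf5 overexpression and 6 control mouse embryos. The authors deposited 1 table of TPM values, 1 column per library. The build GRCm38.p5 and the tools DESeq2, HTSeq, StringTie and HISAT2 are named, per the submitters' processing notes, without versions or roles. Per the labels' protocols, 2 library kits were used; which libraries each made, and whether strand was used in counting, the labels do not say. TPM keeps no depth, so the depth is unknown, precision comes from the spread between libraries, and a change in abundant transcripts moves all other values.

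Symbols were matched through gene names (53255 of 53453 rows) and places through GENCODE M21 (GRCm38). Genes reaching 1 TPM in 5 or more libraries were tested on log2(TPM + 1), a scale that understates changes of low genes, with limma 3.58.1 in R 4.3.3 (variance trend, two-sided, Benjamini-Hochberg threshold 0.05, no covariate). The code was tested on simulated data. Shares and figures used Python 3.11.15. Members, lists and tests were chosen with earlier results of these data known. Values per library are given for called members, troponins above 0 in at least 5 libraries and the most abundant member of each role; from the 4 lists, for called genes. A further list is not reported here. Other list genes were picked with their values in view. Libraries were taken as separate embryos, as the labels count them. Alternatives were another pseudocount, other filters, scalings, array weights, the replicate number as a block, and leaving out each library.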

Additional observations from a re-analysis of the deposited data

Results flagged for a closer look

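Among 58 sets of values, the 29 tested members in each group, 1 library stood apart from the rest of its group by Dixon's test at the 95% level, where chance gives about 1 in 20. Cnn2 had 35.3 TPM in control library 2, while the other 5 controls lay between 18.2 and 22.2 TPM.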

How the results depend on the processing

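No called member or called list gene changed direction; some genes that were not called and lay near 0 did, such as Actb (-0.06 to 0.12 on the log2 scale) and Srf (-0.06 to 0.08). The calls of Tnnt1, Cnn3, Cald1 and Ezr held in all 20 alternative fits. Members called higher numbered 5 and ranged from 3 to 5 with 1 library left out (3 without overexpression library 4); members called lower numbered 4 and ranged from 2 to 4 (2 without overexpression library 2). With no low-value filter, 2 members were higher and 2 lower, with adjusted p of 0.0769 for Myh9, 0.0569 for Actn1, 0.0585 for Tagln2, 0.0643 for Msn and 0.157 for Myl9; 28101 genes were then tested. Myl9 also lost its call with a pseudocount of 0.1 and with array weights, and was not testable with a filter of 5 TPM, in the 10 libraries of the block fit, or without control library 1, 2, 4, 5 or 6.

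Of the list genes, 7 were higher and 2 lower. With 1 library left out, 3 to 7 were higher and 2 lower in each fit. The fewest were higher without overexpression library 4, and 4 were higher without control library 3 or overexpression library 1 or 3. Tmod1 missed the filter when any 1 of the 5 overexpression libraries was left out, so it left those counts without being tested. Its call held in the 6 fits of this kind that tested it. With a filter of 5 TPM, 1 list gene was lower. Tmsb4x and Limk1 lost their calls with no filter (adjusted p 0.0924 and 0.0877) and under the replicate block (0.0707 and 0.0948), and Fermt2 under the block (0.0543). Limk1 also lost its call in the same 10 libraries without the block (limma adjusted p 0.0645). Over all genes 310 were higher and 194 lower, with 206 to 313 and 117 to 212 when 1 library was left out (206 higher without overexpression library 4; 117 to 129 lower without control library 3 or 6 or overexpression library 2 or 5). The lower count was 95 without a filter, 311 with quantile normalization and 129 for the 10 libraries of the block fit without the block. The replicate block left 2 members called lower and 4 list genes called higher, against 3 and 6 for the same libraries without it; Actn1 had an adjusted p of 0.0757. Same-numbered libraries correlated by -0.0398 to 0.304 in their deviations, and 1 of 5 matched its own number best, so the numbers were not taken as pairs. No scaling moved the median of all genes by over 0.1 (log2). Values near 1 TPM, such as Myl9 and the muscle genes, are limited by unknown depth.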
